A study of Homo sapiens with 4 samples.

Results

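Axon guidance genes of the Eph and ephrin, semaphorin, netrin and slit systems were compared between MTAC-P and PC9 cells. The members were 47 genes fixed by symbol, and 46 of them had a probe set, a group of probes summarised to 1 value, whose platform annotation named that gene alone. EPHB2 was the member with no such probe set and is not analysed here. The table covers 18239 genes in all. The brightest probe set of a gene, by its mean over the 4 arrays, stood for that gene, and each value is a deposited log2 expression value, on which a difference of 1 is a doubling. PC9 cells come from a human lung adenocarcinoma and carry a mutation that activates EGFR. MTAC-P is described in the labels as a resistant line that was raised by mild exposure to a kinase inhibitor (TKI), with no inhibitor, dose or parent line named. Both lines were grown in DMEM with serum, and each was measured on 2 arrays from total RNA. The labels do not say whether the duplicates were separate cultures or whether drug was present at collection, so every p-value measures only the spread between these arrays, which may be technical. In such bulk RNA, fewer cells of a type and less RNA per cell cannot be told apart. The comparison asks how the resistant line differs from PC9 in these cues and receptors.

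Guidance cues steer cell movement and neurite growth by binding receptors that act on the cytoskeleton, and epithelial and tumour cells use the same proteins in adhesion, boundary formation and migration. Ephrins are membrane-bound ligands of the Eph receptor tyrosine kinases, and signalling runs into both contacting cells. Semaphorins act through plexins, with neuropilins as co-receptors for most class 3 members. Netrins bind DCC, neogenin and UNC5 receptors, and slits bind ROBO receptors.

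No member passed limma's adjusted p threshold of 0.05 between the lines. The largest differences were those of NTNG2, higher in MTAC-P by 1.57 on the log2 scale, SEMA3C, lower by a difference of -1.37, and NTN4, lower by a difference of -1.35. UNC5B and SEMA3A were lower in MTAC-P and SEMA4F was higher, each by a log2 difference between 0.5 and 1 in size. Of the 39 members that passed the filter on dim genes, 19 had a higher and 20 a lower mean in MTAC-P, with a median log2 difference of -0.015 against 0.031 over the 14970 genes tested. Over all 46 members the median was -0.00034, against 0.027 over all 18239 genes.

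The members past the adjusted threshold numbered 0, against a background of 0.02 percent of tested genes. At an unadjusted limma p under 0.05 there were 8 members, 3 higher and 5 lower. These are 7.69 and 12.8 percent of the members tested, beside 7.76 and 11.1 percent of all tested genes. PC9 and MTAC-P arrays did not overlap for 16 tested members, 7 with both MTAC-P arrays higher and 9 with both lower. That is 41.0 percent of them, against 53.2 percent of all tested genes (28.3 percent higher and 24.9 percent lower). In the fit with a variance trend 2 members passed, NTNG2 and NTN4, among 77 genes in all. Leaving out each array in turn gave log2 differences of 1.48 to 1.66 for NTNG2, -1.49 to -1.21 for NTN4 and -1.76 to -0.98 for SEMA3C. A log2 difference of at least 0.5 in size was found for 8 members, 20.5 percent of those tested against 16.6 percent of all genes. It reached 1 for 1 higher and 2 lower members, where the background was 0.401 and 1.62 percent.

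**Figure D1:**
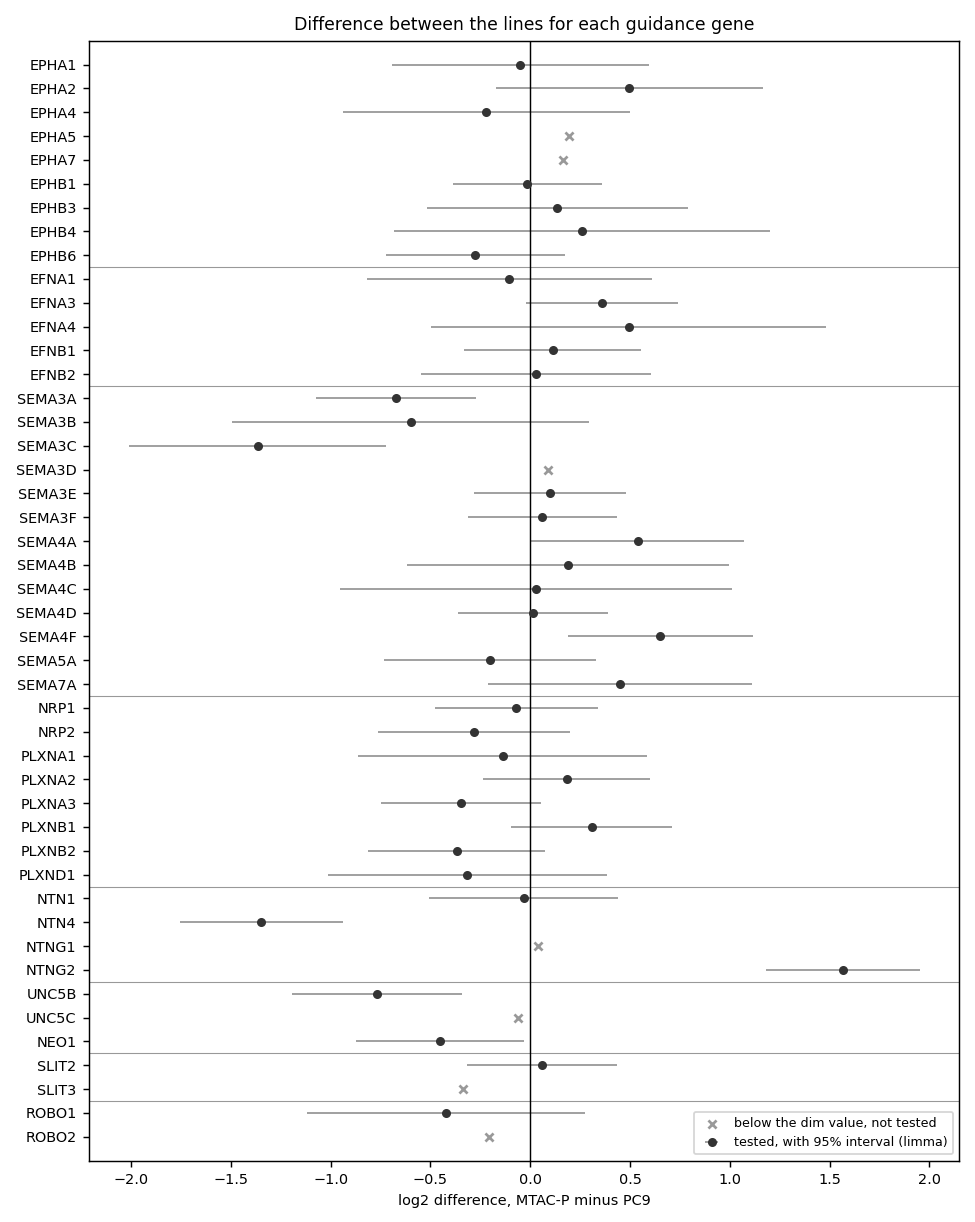
Log2 difference between MTAC-P and PC9 (x axis) for each of the 46 guidance genes (y axis), grouped by family. Filled points are the 39 tested genes with limma's 95% interval, and crosses are the 7 genes under the dim value. NTNG2 stands furthest to the right at 1.57, and SEMA3C and NTN4 furthest to the left at -1.37 and -1.35.

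The table holds no detection calls, so levels were judged against 23 background control probe sets whose probes carry from 3 to 25 G or C bases. The brightest of them on every array was that with 25 G or C bases, at 6.94 and 6.81 in PC9 and 7.34 and 7.38 in MTAC-P. Without it, the level set by the next 22 was 4.95 and 4.80 in PC9 and 5.0 and 5.23 in MTAC-P. Above the first level on all 4 arrays were 11 members, namely EPHA2, EPHA4, EFNA1, EFNB2, SEMA3B, SEMA3C, SEMA4B, NRP1, PLXNA2, PLXNB1 and PLXNB2. These are 23.9 percent of the members, against 34.8 percent of all genes. Above the second level, which was added after the data were seen, were 28 members, or 60.9 percent against 52.2 percent. Background probe sets of 19 or fewer G and C bases set a level between 4.26 and 4.40, and 34 members lay above it on all arrays. These are 73.9 percent of the members, against 64.8 percent of all genes. No fold change is given for a member that lay under the highest background level in both lines, so those are described by log2 differences alone.

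Below the second level on all 4 arrays were EPHA5, EPHA7, EFNB1, SEMA3D, SEMA3E, NTNG1, UNC5C, SLIT2, SLIT3 and ROBO2. They make up 21.7 percent of the members, against 39.1 percent of all genes. A further look at the dim end showed that 7 members had a mean under the dim value of 4.14, the 25th percentile of all probe sets, and were not tested. These 7 were EPHA5, EPHA7, SEMA3D, NTNG1, UNC5C, SLIT3 and ROBO2, with values from 3.57 to 4.24 and log2 differences from -0.34 to 0.19. Thus 39 of the 46 members were tested, beside 14970 of all 18239 genes. The plot of levels shows that both slits and ROBO2 stood at the background end in either line, while 7 of the 8 plexins and neuropilins and 3 of the 5 ephrins stood above the second background level on all arrays. That is 87.5 percent of the plexins and neuropilins and 60.0 percent of the ephrins, against 52.2 percent of all genes.

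**Figure D2:**
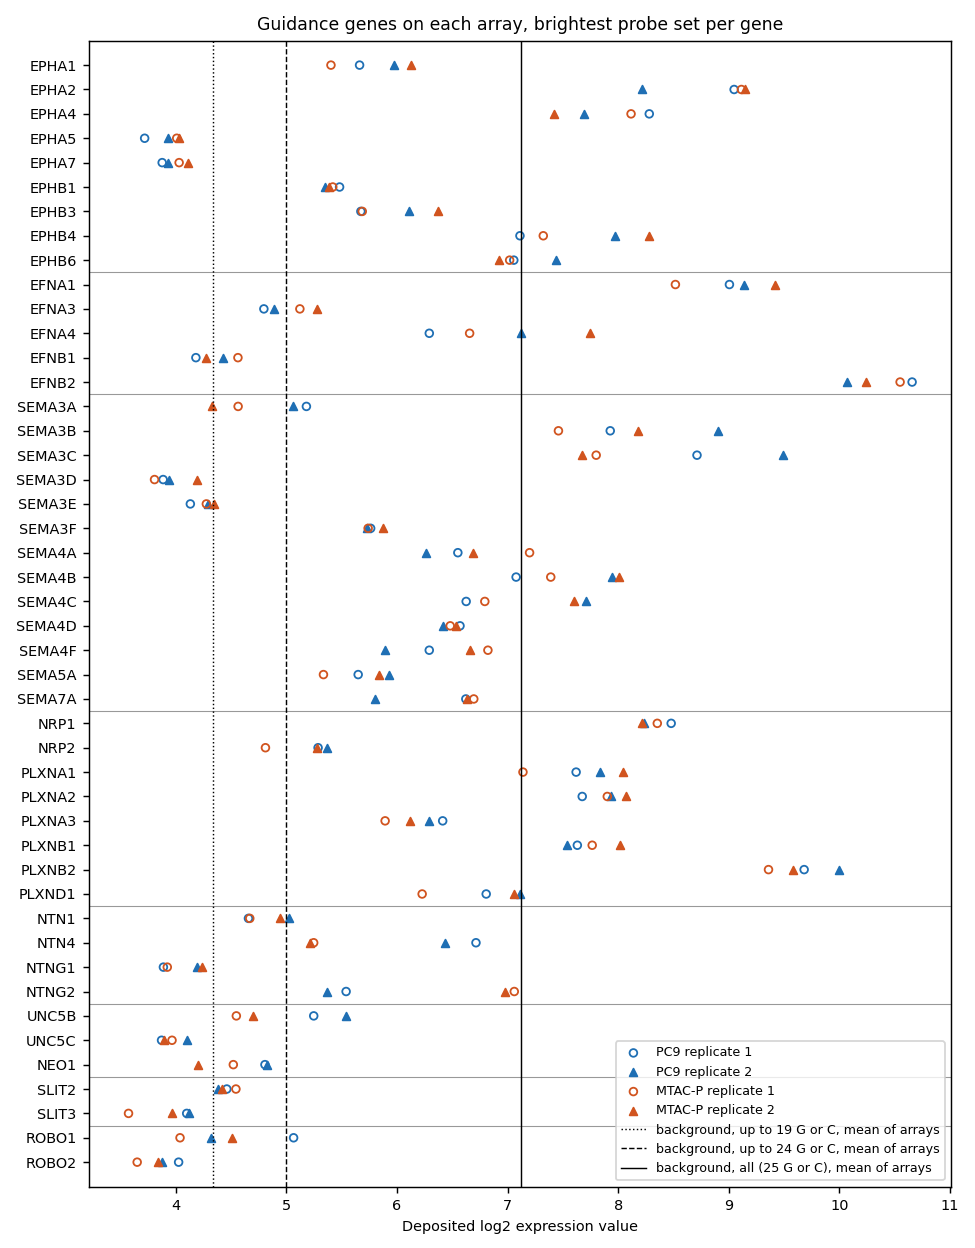
Deposited log2 expression value (x axis) of each guidance gene (y axis) on every array, with blue for PC9, orange for MTAC-P, circles for replicate 1 and triangles for replicate 2. Vertical lines mark the highest background probe set with up to 19, up to 24 and up to 25 G or C bases, averaged over the 4 arrays. The colours separate clearly for NTNG2, NTN4 and SEMA3C, and mix for most other genes.

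The cell identity of both lines was read from marker genes. The epithelial genes EPCAM, KRT7, KRT8, KRT18, KRT19 and CDH1 lay above the highest background level on all arrays, and the lung lineage markers NKX2-1, SFTPB, SFTPC and NAPSA lay under it on all arrays. None of 7 fibroblast, 6 endothelial and 5 blood markers lay above it in any array, as was so for 57.3 percent of all genes. Of 6 neuronal markers, TUBB3 lay above it on all arrays and the other 5 on none. Under the second background level on all arrays were 6 of the fibroblast, 3 of the endothelial and 2 of the blood markers. HBB of the blood list lay above that second level on all arrays, and CDH5 of the endothelial list on both PC9 arrays and 1 MTAC-P array. The neuronal list averaged 5.47 and 5.54 in PC9 and 5.84 and 5.58 in MTAC-P, and the epithelial list 9.71 and 9.66 against 9.68 and 9.63. RBFOX3, SYP and GAP43 of the neuronal list were higher in MTAC-P at an unadjusted limma p under 0.05, by 0.43, 0.56 and 0.44. STMN2 had both MTAC-P arrays lower, by a difference of -0.35. RBFOX3 and STMN2 lay under the second background level on all arrays, and GAP43 above it on 1 MTAC-P array only. SYP lay above that level on both PC9 arrays and 1 MTAC-P array. Over all tested genes 7.76 percent were higher and 11.1 percent lower at that unadjusted threshold. EPCAM and CDH1 of the epithelial list were lower in MTAC-P at the same unadjusted threshold, by differences of -0.49 and -0.54, and none of these genes passed the adjusted one. The part of either list in the values of the guidance genes was not tested. The poly-A spike-in controls averaged 7.29 and 7.60 in PC9 and 8.14 and 8.19 in MTAC-P, and this difference cannot be told apart from the difference between the lines.

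Among semaphorins, the largest lower values belonged to secreted class 3 members. SEMA3C, a secreted ligand that signals through neuropilins and plexin D1, measured 8.71 and 9.49 in PC9 and 7.80 and 7.67 in MTAC-P. Both MTAC-P arrays lay below both PC9 arrays, and the gap of 0.78 between the PC9 arrays was smaller than the difference between the lines. The means were 9.10 ± 0.55 in PC9 and 7.74 ± 0.091 in MTAC-P (SD, n = 2), a 2.58-fold lower level in MTAC-P that corresponds to -1.37 on the log2 scale (SE 0.27, limma adjusted p = 0.111). Its second brightest probe set differed by -1.49, with both MTAC-P arrays lower. The other 4 probe sets of SEMA3C, none of them above the second background level on all 4 arrays, differed by -0.38 to 0.21, and the mean of all 6 differed by -0.60. Without PC9 replicate 1 the difference of SEMA3C was -1.76, and without PC9 replicate 2 it was -0.98. The limma adjusted p of SEMA3C was 0.0605 with a variance trend and 0.169 with its probe sets averaged.

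SEMA3A, the repulsive cue that binds neuropilin 1, measured 5.18 and 5.06 in PC9 and 4.56 and 4.33 in MTAC-P. The lines did not overlap, and the MTAC-P arrays lay under the second background level while the PC9 arrays lay above it. The log2 difference of SEMA3A was -0.67 (SE 0.17, limma adjusted p = 0.133), and its other probe set, under the dim value, differed by -0.19. SEMA3B, a semaphorin studied as a tumour suppressor in lung cancer, measured 7.93 and 8.90 in PC9 and 7.46 and 8.18 in MTAC-P, so that the lines overlapped. Its log2 difference of -0.60 (SE 0.37, limma adjusted p = 0.422) became -0.11 without PC9 replicate 2 and -1.09 without PC9 replicate 1. All 3 probe sets of SEMA3B were lower in MTAC-P, from -0.60 to -0.30. SEMA3D, SEMA3E and SEMA3F differed by 0.060 to 0.10, the first of them untested.

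The membrane-bound class 4 semaphorins, several of which bind B-type plexins, had higher means in MTAC-P in 5 of 5 cases on the brightest probe set, by 0.014 to 0.65, where 53.8 percent of all tested genes were higher. When a gene's probe sets were averaged, 3 of 5 were higher, since SEMA4C was then at -0.11 and SEMA4D at -0.013. SEMA4F measured 6.29 and 5.89 in PC9 and 6.82 and 6.66 in MTAC-P, without overlap. Its log2 difference was 0.65 (SE 0.19, limma adjusted p = 0.163), its other 3 probe sets were near background and differed by -0.12 to 0.50, and the mean of all 4 differed by 0.30. SEMA4A measured 6.55 and 6.26 in PC9 and 7.20 and 6.69 in MTAC-P, also without overlap. The log2 difference of SEMA4A was 0.54 (SE 0.22, limma adjusted p = 0.263) on that probe set and 0.12 on its other one, and without MTAC-P replicate 1 it was 0.28. SEMA4B, SEMA4C and SEMA4D differed by 0.19, 0.028 and 0.014, with overlapping arrays. Of the remaining semaphorins, SEMA5A differed by -0.20 with overlapping arrays on its brightest probe set. The second brightest of SEMA5A differed by -0.81 without overlap, at 5.61 and 6.21 in PC9 and 5.14 and 5.07 in MTAC-P. All 5 probe sets of SEMA5A ranged from -0.81 to 0.21, with a mean of -0.20. SEMA7A, which is held in the membrane by a lipid anchor, differed by 0.45 without overlap. Its MTAC-P arrays lay just above the higher PC9 array, and its PC9 arrays were 0.82 apart, with replicate 2 the lower. The 4 probe sets of SEMA7A differed by 0.12 to 0.45, with a mean of 0.245.

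**Figure D3:**
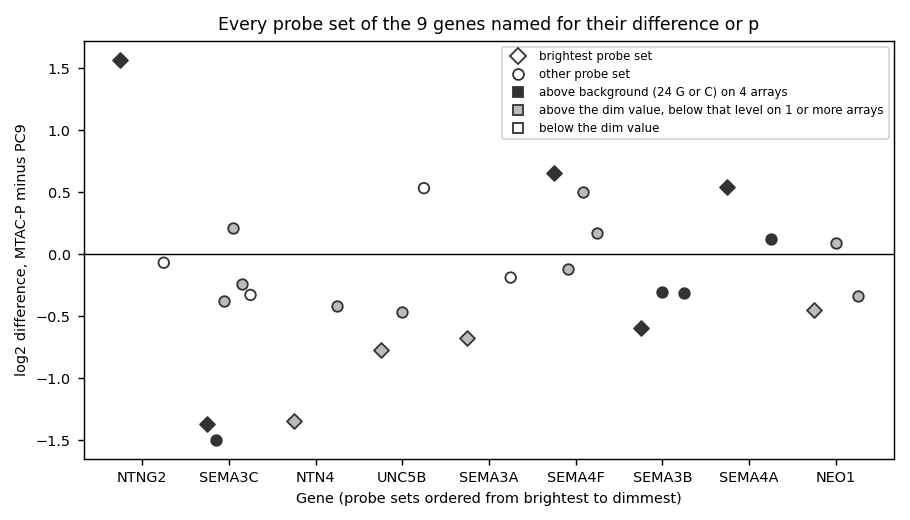
Log2 difference between MTAC-P and PC9 (y axis) of every probe set of the 9 genes named for their difference or their unadjusted p (x axis), ordered from the brightest, a diamond, to the dimmest. Black marks lie above the background level of up to 24 G or C bases on all 4 arrays, grey marks only above the dim value, and open marks below it. The second probe set of SEMA3C lies beside the first at -1.49, whereas the second one of NTNG2 is dim and lies at -0.07.

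The semaphorin receptors showed smaller differences. NRP1, the neuropilin that binds SEMA3A and VEGF, measured 8.48 and 8.23 in PC9 and 8.35 and 8.22 in MTAC-P. The lines overlapped, with a log2 difference of -0.070 (95% interval -0.48 to 0.34), and this interval leaves room for a modest difference in either direction. A dimmer probe set of NRP1 differed by 0.59, the mean of its 6 probe sets by 0.12, and the sign also turned without PC9 replicate 1, to 0.053. NRP2, the other neuropilin, measured 5.29 and 5.36 in PC9 and 4.81 and 5.27 in MTAC-P. Its log2 difference was -0.28 (95% interval -0.76 to 0.20), it was -0.050 without MTAC-P replicate 1, and 5 of its 8 probe sets above the dim value had the opposite sign.

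Of the 6 plexins, 4 had lower and 2 higher means in MTAC-P, from -0.37 to 0.31. PLXNB2, a receptor of class 4 semaphorins, measured 9.68 and 10.00 in PC9 and 9.36 and 9.58 in MTAC-P, without overlap. Its log2 difference was -0.37 (SE 0.18, limma adjusted p = 0.331), and its 4 probe sets differed by -0.37 to -0.15. PLXNA3 was also lower without overlap, by a log2 difference of -0.34, and PLXNB1 higher without overlap, by 0.31. PLXNA1, PLXNA2 and PLXND1 differed by -0.14, 0.18 and -0.31 with overlapping arrays. The dimmer probe set of PLXNA2 differed by -0.37, and the mean of both by -0.093. That of PLXND1, above the second background level on all 4 arrays, differed by 0.076, and the mean of both by -0.12. The dimmer probe sets of PLXNA1 and PLXNB1 kept the sign of the brightest.

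The netrin system held the largest higher and 1 of the largest lower differences. NTNG2, netrin G2, is a lipid-anchored membrane protein that is known from synapses and does not bind the classical netrin receptors. It measured 5.54 and 5.36 in PC9 and 7.06 and 6.98 in MTAC-P. The MTAC-P arrays lay far above the PC9 arrays beside duplicate gaps of 0.18 and 0.084 in size, and all 4 arrays lay between the second and the highest background level. The log2 difference of NTNG2 was 1.57 (SE 0.16, limma adjusted p = 0.0934). Its other probe set, under the dim value in both lines, differed by -0.07, and the mean of both probe sets by 0.75. With a variance trend the limma adjusted p of NTNG2 was 0.0379, and with its probe sets averaged it was 0.150. Leaving out 1 array gave log2 differences of 1.48 to 1.66 for NTNG2. NTNG1, the related lipid-anchored netrin, was under the dim value in both lines.

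NTN4, a secreted netrin that binds laminin in basement membranes, measured 6.71 and 6.44 in PC9 and 5.25 and 5.21 in MTAC-P. Both MTAC-P arrays were lower and lay close to the second background level, above which 1 of them stood. The log2 difference of NTN4 was -1.35 (SE 0.17, limma adjusted p = 0.0971), and its other probe set differed by -0.41, so that the mean of both was -0.88. With a variance trend the limma adjusted p of NTN4 was 0.0489, and with its probe sets averaged it was 0.150. Leaving out 1 array gave log2 differences of -1.49 to -1.21 for NTN4. NTN1, the founding axon-attracting netrin, lay around the second background level and differed by -0.032 (95% interval -0.51 to 0.44).

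Netrin receptors were dim in both lines, and none passed the adjusted threshold. UNC5B, a receptor that mediates repulsion and can trigger apoptosis when no netrin is bound, measured 5.25 and 5.54 in PC9 and 4.55 and 4.70 in MTAC-P. Its PC9 arrays lay above the second background level and its MTAC-P arrays under it, while all 4 arrays lay under the highest one. The log2 difference of UNC5B was -0.77 (SE 0.18, limma adjusted p = 0.125), with another probe set at -0.47 and the dimmest, under the dim value, at 0.53. NEO1, neogenin, measured 4.81 and 4.82 in PC9 and 4.52 and 4.20 in MTAC-P. The log2 difference of NEO1 was -0.45 (SE 0.17, limma adjusted p = 0.239), and its 3 probe sets differed by -0.45 to 0.088. UNC5C was under the dim value.

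Slits and their receptors were near background in both lines. SLIT2, a secreted repellent, measured 4.46 and 4.38 in PC9 and 4.54 and 4.42 in MTAC-P, with overlapping lines and a log2 difference of 0.058 (95% interval -0.32 to 0.43). ROBO1, its receptor, measured 5.06 and 4.32 in PC9 and 4.04 and 4.50 in MTAC-P. The PC9 duplicates of ROBO1 were 0.75 apart, and its log2 difference of -0.42 (limma adjusted p = 0.465) shrank to -0.046 without PC9 replicate 1, against -0.79 when replicate 2 was left out. SLIT3 and ROBO2, both under the dim value and untested, had both MTAC-P arrays lower, by log2 differences of -0.34 and -0.20.

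Of 9 Eph receptors, 7 lay above the second background level on all arrays, which is 77.8 percent against 52.2 percent of all genes. None of them had an unadjusted limma p under 0.05. EPHA2, the Eph kinase most often studied in carcinoma, measured 9.05 and 8.22 in PC9 and 9.11 and 9.14 in MTAC-P. The MTAC-P arrays lay just above the higher PC9 array, so the log2 difference of 0.50 (SE 0.28, limma adjusted p = 0.376) rested on PC9 replicate 2 and was 0.081 without it. The dimmer probe set of EPHA2 showed the same order of arrays, with a difference of 0.34. EPHB4, the receptor of ephrin-B2, measured 7.11 and 7.97 in PC9 and 7.32 and 8.28 in MTAC-P. The lines overlapped for EPHB4, and its log2 difference was 0.26 (95% interval -0.68 to 1.20). EPHA4 differed by -0.22, EPHB6 by -0.27, EPHB3 by 0.14, EPHA1 by -0.049 and EPHB1 by -0.015, and of these EPHB6 alone had arrays that did not overlap.

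Ephrins differed by -0.10 to 0.49. EFNB2, a transmembrane ephrin of arteries and epithelia, measured 10.66 and 10.07 in PC9 and 10.55 and 10.24 in MTAC-P, which overlap. Its log2 difference was 0.029 (95% interval -0.55 to 0.60). The 4 probe sets of EFNB2 differed by -0.11 to 0.43, with a mean of 0.12. The one at 0.43 lay above the second background level on all 4 arrays. EFNA1, a lipid-anchored ligand of EPHA2, differed by -0.10 with overlapping arrays. EFNA4 differed by 0.49 with overlapping arrays and EFNA3 by 0.36 without overlap (limma adjusted p = 0.284). The 5 probe sets of EFNA3 differed by -0.25 to 0.46, with a mean of 0.12, and 2 of them had the opposite sign. EFNB1 differed by 0.11 near background.

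For 32 of the 46 members the gap between the duplicates of at least 1 line was larger than the difference between the lines, which is 69.6 percent against 64.2 percent of all genes. A single gap rests on 2 arrays and a line difference on the means of 4, so a high share is given here as a description only. The replicate 2 array was the higher in both lines for 23 members, or 50 percent against 29.0 percent of all genes, and the replicate 1 array for 11, or 23.9 percent against 25.9 percent. SEMA4C, a ligand of plexin B2, is an example, with 6.62 and 7.71 in PC9 and 6.79 and 7.60 in MTAC-P. EFNA4 measured 6.29 and 7.12 in PC9 and 6.66 and 7.74 in MTAC-P. EPHB4, SEMA4B and SEMA3B had the same order. The 3′ control probe set of ACTB minus its 5′ one, a measure of RNA integrity and labelling length, was also higher in replicate 2 of each line. It was 1.71 and 2.49 in PC9 and 1.51 and 1.75 in MTAC-P on the log2 scale. The same measure for GAPDH differed far less between duplicates, at -0.057 and 0.038 in PC9 and -0.090 and -0.069 in MTAC-P. The part of RNA integrity in these gaps was not tested.

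**Figure D4:**
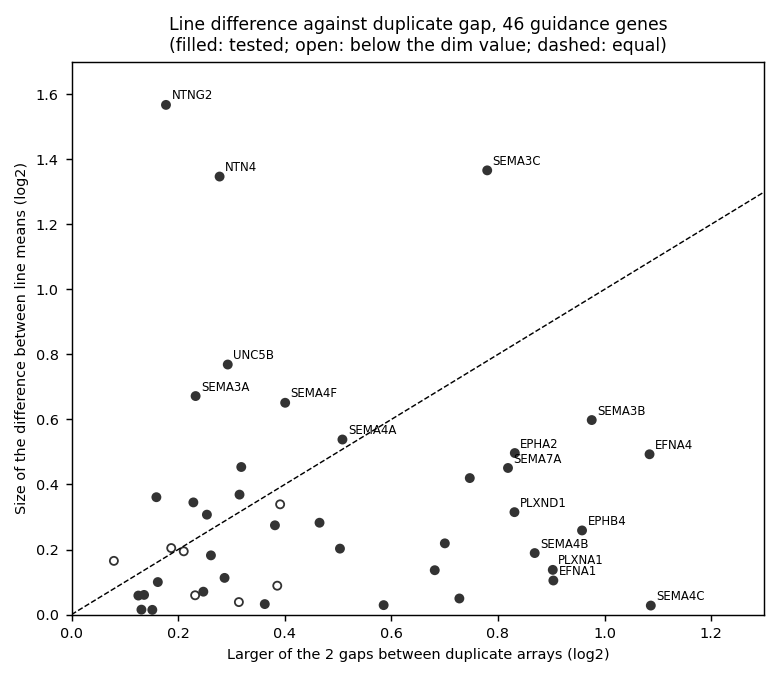
Size of the log2 difference between line means (y axis) against the larger of the gaps between duplicate arrays (x axis), 1 point per guidance gene. Filled points are tested genes, open points lie under the dim value, and the dashed line marks equality. NTNG2, NTN4, SEMA3C, UNC5B, SEMA3A and SEMA4F lie above the line, whereas SEMA3B, EFNA4, EPHA2, EPHB4 and SEMA4C lie below it.

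Some members are neighbours on the genome. In the RefSeq gene table SEMA3E, SEMA3A and SEMA3D follow each other with no protein-coding gene between them, and they differed by 0.10, -0.67 and 0.089. SEMA3C, with 3 protein-coding genes between it and SEMA3E, differed by -1.37. EFNA3 and EFNA1 are also direct neighbours and differed by 0.36 and -0.10, and EFNA4, with 1 protein-coding gene between it and EFNA3, differed by 0.49. SEMA3F and SEMA3B, 3 such genes apart, differed by 0.060 and -0.60. ROBO2 and ROBO1, direct neighbours as well, differed by -0.20 and -0.42.

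Promoter sequence was looked up for the members in RefSeq's table of GRCh38.p14, which held 41 of the 46. Shown are the 250 bases before the most upstream start of SEMA3C and NTN4, lower in MTAC-P, and of SEMA4F, higher in it. They are given on the strand of the gene and 5′ to 3′. These genes differed most among those with an entry, and the sequences show how unlike these windows are. Which start these cells use was not tested. The windows are chr7:80922390-80922639 on the minus strand for SEMA3C, chr12:95791156-95791405 on the minus strand for NTN4 and chr2:74653997-74654246 on the plus strand for SEMA4F. Capitals mark the GC box GGGCGG and the CCAAT box CCAAT on either strand.
SEMA3C: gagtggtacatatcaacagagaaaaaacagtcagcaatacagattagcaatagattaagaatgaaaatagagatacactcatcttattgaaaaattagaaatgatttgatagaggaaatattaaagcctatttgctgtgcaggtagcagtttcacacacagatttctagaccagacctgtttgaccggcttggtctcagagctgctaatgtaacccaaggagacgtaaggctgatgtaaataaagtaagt
NTN4: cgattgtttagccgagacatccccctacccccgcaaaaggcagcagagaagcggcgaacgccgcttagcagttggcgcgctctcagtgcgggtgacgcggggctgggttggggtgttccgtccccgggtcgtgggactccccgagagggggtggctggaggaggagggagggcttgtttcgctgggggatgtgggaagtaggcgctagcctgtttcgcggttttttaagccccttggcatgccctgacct
SEMA4F: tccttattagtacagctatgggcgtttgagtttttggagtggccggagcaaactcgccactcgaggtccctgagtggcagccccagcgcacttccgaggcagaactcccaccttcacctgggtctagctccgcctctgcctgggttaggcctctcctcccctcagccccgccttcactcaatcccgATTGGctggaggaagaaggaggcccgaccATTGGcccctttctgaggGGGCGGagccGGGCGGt
The SEMA3C window was 36.4 percent G or C, against 64.4 percent for NTN4, 62.4 percent for SEMA4F and a median of 62.0 percent over the same 250 bases of the 21982 windows of protein-coding genes. SEMA4F held 2 GC boxes and 2 CCAAT boxes, and the SEMA3C and NTN4 windows held neither. SEMA3C and NTN4 each have 2 starts in the table, and the downstream ones were not printed. Of all 65 member windows, several per gene for some, 70.8 percent held a GC box and 32.3 percent a CCAAT box, against 53.8 and 32.7 percent of the windows of protein-coding genes. The TATA box TATAAA was in 4.62 percent of member windows against 9.05 percent, the AP-1 motif TGACTCA in 0 against 3.46 percent and the E-box CACGTG in 3.08 against 7.33 percent, all on both strands, with matches that overlap another motif counted for both. These matches describe letters in these windows and say nothing of the factors that bind them.

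Genes of the same families outside the members were mostly dim. Of 26 such genes with a probe set, 21 were tested, 11 had a higher and 10 a lower mean in MTAC-P, and 0 passed limma's adjusted threshold, with 1 at an unadjusted p under 0.05. Only EPHA10, EFNA5, SEMA6C and UNC5A of the 26 lay above the second background level on all arrays. That is 15.4 percent, against 52.2 percent of all genes. The highest log2 differences were those of SEMA6B, 0.56, and PLXNA4, 0.40, both near background. The lowest were those of EFNA5, -0.30, and ROBO4, -0.21. EFNA5, an A-type ephrin, measured 8.65 and 9.04 in PC9 and 8.49 and 8.61 in MTAC-P, with both MTAC-P arrays lower.

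Genes that act with or after the guidance receptors, most of them intracellular regulators of the cytoskeleton but also the membrane-anchored ligands RGMA and RGMB, divided evenly, with 18 higher and 18 lower of 36 tested and a median log2 difference of -0.015. None passed limma's adjusted threshold, and 5 higher and 6 lower had an unadjusted p under 0.05, which is 30.6 percent against 18.9 percent of all tested genes. RGMB, a ligand of neogenin, measured 6.44 and 4.99 in PC9 and 7.35 and 6.71 in MTAC-P, and its PC9 arrays were 1.45 apart. Its log2 difference was 1.31 (SE 0.47, limma adjusted p = 0.217). MICAL3, an actin-regulating oxidoreductase of the semaphorin pathway family, differed by 0.76. VAV3, a guanine nucleotide exchange factor that acts after Eph receptors, differed by -1.05 (SE 0.26, limma adjusted p = 0.137), at 6.47 and 7.23 in PC9 and 5.72 and 5.89 in MTAC-P. ARHGEF12, an exchange factor that binds B-type plexins, differed by -0.83.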

How the data were processed

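Each line, PC9 and MTAC-P, gave total RNA for 2 arrays. The authors deposited log2 expression values for 49386 probe sets, and their range showed the log2 scale. Per the labels' protocols a one-colour Agilent kit was used, with Agilent Feature Extraction 10.7 per the submitters' processing notes, whereas the probe-set names are of Affymetrix type. Background correction, normalization and summarization are not given in the sources used here. Array medians ran from 4.85 to 4.88, so the values were used as deposited.

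Of the probe sets, 45253 name 1 gene in GEO's platform annotation, 1327 several and 2713 none, and 93 are controls. Symbols were updated to RefSeq GRCh38.p14. Genes with a mean under 4.14, the 25th percentile over probe sets, were not tested. MTAC-P was set against PC9 by limma's lmFit and eBayes (version 3.58.1, R 4.3.3, 2-sided), with Benjamini-Hochberg adjustment over 14970 genes at 0.05. With 4 arrays precision is limited, and an exact permutation test of 2 against 2 cannot go below 0.333. On 20 simulated data sets with 200 changed genes among 14970, the fit recovered 26.1% of log2 changes of 1 and 95.0% of those of 2. It made 7.9 wrong calls per data set on average. The simulated noise was independent between arrays, whereas the duplicate differences of the real lines correlated with an r of 0.28. Recovery in the real arrays may therefore differ and was not tested.

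Members, gene lists and tests were chosen with earlier results of these data known. Named with every array were members with an unadjusted p under 0.05 or a difference of at least 0.5, together with EPHA2, EPHB4, EFNB2, NRP1, NRP2, PLXNB2, SEMA3C, NTN4, UNC5B, SLIT2 and ROBO1. Of the other lists the 2 highest and 2 lowest tested genes were named. SEMA4C, EFNA4 and the further values of the replicate order were picked after their values were seen. The alternatives tried were a replicate block, scaling to the median, the 75th percentile or quantiles, a filter at the 50th percentile or none, averaging the probe sets of each gene, a robust prior, a variance trend, a threshold of 0.10, leaving out each array and other background levels. Python 3.11.15 with matplotlib 3.10.9 drew the figures.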

Additional observations from a re-analysis of the deposited data

How the results depend on the processing

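Calls depended on the settings, while directions mostly held. Over all tested genes 3 passed, against 2079 with the replicate block, 77 with a variance trend, 124 at a threshold of 0.10, 1 with the filter at the 50th percentile, 0 with the mean of all probe sets (limma) and 0 to 68 when 1 array was left out. The members past the threshold were 0, against 8 with the replicate block, 2 with a variance trend, 2 at a threshold of 0.10 and 0 to 2 when 1 array was left out. The 8 were NTNG2, SEMA3C, NTN4, UNC5B, SEMA3A, SEMA4F, SEMA3B and SEMA4A. Same-numbered arrays share only a number in the labels. The duplicate differences of the lines correlated across genes with an r of 0.28, but with 2 pairs this does not establish a pairing, and the block leaves a single residual degree of freedom. The median log2 difference of the members ran from -0.17 without MTAC-P replicate 2 to 0.10 without MTAC-P replicate 1. Members above background on all 4 arrays numbered 11, against 34 with the background probe sets of 3 to 19 G or C bases and 28 with those of 3 to 24, a level added after seeing the data, and 11 to 13 when 1 array was left out. The shares of all genes above these background levels on all 4 arrays were 34.8, 64.8 and 52.2 percent, in the same order. Of 234 comparisons of a named member with an alternative, 213 kept the direction and the side of the threshold, 14 passed it and 7 turned the sign. The replicate block, variance trend, robust prior, threshold of 0.10 and the other filters on dim genes leave each log2 difference unchanged. Those settings therefore could not turn a sign. Averaging the probe sets of NRP1 turned its sign, to 0.12. Leaving out 1 array turned signs for NRP1 (-0.19 to 0.053), EPHB4 (-0.22 to 0.74), EFNB2 (-0.26 to 0.32) and SLIT2 (-0.0043 to 0.12). The causes were not tested. Levels near background limit what can be said of slits, ROBO receptors and netrin receptors.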
